A study of Homo sapiens with 4 samples.

Results

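The expression of 10 genes of the Notch pathway was followed in the KGN line, human granulosa cells that were derived from a granulosa cell tumour. They were the receptors NOTCH1, NOTCH2 and NOTCH3, the ligands JAG1, JAG2 and DLL1, and the transcriptional targets HES1, HEY1, HEY2 and HEYL. The genes were chosen by name, and all 10 were measured, each by 1 probe set, among 17687 genes in all. RNA had been hybridised to Clariom S Human arrays, with 1 array for each of 4 groups. These were cells given YAP and TAZ siRNAs (5 nM each) and then 8Br-cAMP at 0.5 mM, which mimics cyclic AMP and enters cells (siYT+8Br-cAMP), the same siRNAs without it (siYT), control siRNA (10 nM) with 8Br-cAMP (siNC+8Br-cAMP), and control siRNA alone (siNC). The medium was changed 48 h after transfection, and RNA was taken 24 h later. All 4 groups were transfected cultures of this single line, and untransfected cells were not among them. Every group is a single array, and a difference between 2 arrays therefore has no replicate check.

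Notch receptors are membrane proteins that are cut when a Jagged or Delta-like ligand on a neighbouring cell binds them. The released intracellular part enters the nucleus, joins the DNA-binding protein RBPJ and a Mastermind coactivator, and switches on HES and HEY genes, which encode basic helix-loop-helix repressors. In the ovary, Notch signalling takes part in follicle assembly and granulosa cell growth, and JAG1 is known as a YAP and TAZ target in several other cell types.

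The starts of the HES1, HEY2 and HEYL genes are shown because these targets share the RBPJ letters. That of JAG1 is shown because this ligand was lower after YAP/TAZ siRNA. HEY2 and HEYL had levels too low to be called, so the letters are not set against the calls. Each line is the 250 bases before the RefSeq start, 5′ to 3′ on the strand of the gene, on GRCh38.p14. Capitals mark matches to the RBPJ core TGGGAA, the TEAD core GGAATG, the short cyclic AMP response element TGACG and the HES/HEY box CACGNG, on either strand. HES1 is at chr3:194135898-194136147 on the plus strand, HEY2 at chr6:125749382-125749631 on the plus strand, HEYL at chr1:39639644-39639893 on the minus strand and JAG1 at chr20:10674000-10674249 on the minus strand.
HES1: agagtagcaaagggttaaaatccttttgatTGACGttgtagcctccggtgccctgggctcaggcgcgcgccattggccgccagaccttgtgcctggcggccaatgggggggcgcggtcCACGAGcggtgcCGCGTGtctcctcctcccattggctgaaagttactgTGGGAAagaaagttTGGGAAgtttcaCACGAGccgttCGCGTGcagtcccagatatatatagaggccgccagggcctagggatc
HEY2: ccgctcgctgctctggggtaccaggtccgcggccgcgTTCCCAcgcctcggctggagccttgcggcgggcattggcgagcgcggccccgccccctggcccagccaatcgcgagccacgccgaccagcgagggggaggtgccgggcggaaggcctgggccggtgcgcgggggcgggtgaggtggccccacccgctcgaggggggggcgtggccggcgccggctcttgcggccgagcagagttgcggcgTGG
HEYL: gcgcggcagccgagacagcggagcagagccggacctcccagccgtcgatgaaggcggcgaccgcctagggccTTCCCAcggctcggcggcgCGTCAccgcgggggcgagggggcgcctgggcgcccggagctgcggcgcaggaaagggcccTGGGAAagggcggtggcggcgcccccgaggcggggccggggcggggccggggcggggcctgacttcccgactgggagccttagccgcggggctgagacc
JAG1: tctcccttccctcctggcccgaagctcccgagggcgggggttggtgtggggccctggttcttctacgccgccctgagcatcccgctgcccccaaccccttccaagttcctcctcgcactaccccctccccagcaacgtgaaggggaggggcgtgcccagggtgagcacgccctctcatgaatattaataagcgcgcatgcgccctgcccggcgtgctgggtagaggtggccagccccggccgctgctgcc

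The HES1 sequence held the RBPJ core at 84 and 70 bases before the start, both times on the gene's own strand. It also held 4 HES/HEY boxes and 1 cyclic AMP element, and none of these matches overlapped another. HEYL held the RBPJ core at 178 bases before the start on the opposite strand and at 99 bases on its own strand. HEY2 held it at 213 bases on the opposite strand and at 3 bases on its own strand, where the match runs past the printed end. In the RefSeq table, 8 of the 10 members had a sequence, and DLL1 and HEY1 were not among them. The window searched also took in the first 50 bases after the start. The RBPJ core stood in 3 of the 8 members (HES1, HEY2 and HEYL) and in 24.0% of all 35116 windows. The cyclic AMP element stood in 4 of 8 and in 24.6% of windows, and the HES/HEY box in 5 of 8 and in 30.5%. The TEAD core stood in none of the 8 and in 14.0% of windows. In JAG1 the only matches were a HES/HEY box and a cyclic AMP element that overlap each other after the start. Such a match is a run of letters and not a measured binding site.

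Levels are the deposited log2 signals. A gene was called by size when its values on 2 arrays were 1 or more apart, a 2-fold step, and the higher of the 2 values reached the level filter of 6.22, the middle of all gene values. The array also carries 612 negative control probe sets, whose 95th percentile lay between 6.53 and 7.29 on the 4 arrays. Of the 10 members, 5 reached the level filter on at least 1 array (NOTCH2, JAG1, JAG2, HES1 and HEY1), and the same 5 exceeded the 95th percentile of the negative controls on at least 1 array. NOTCH1, NOTCH3, DLL1, HEY2 and HEYL stayed under the filter on all 4 arrays. Among all genes, 55.1% reached the filter on at least 1 array.

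**Figure D1:**
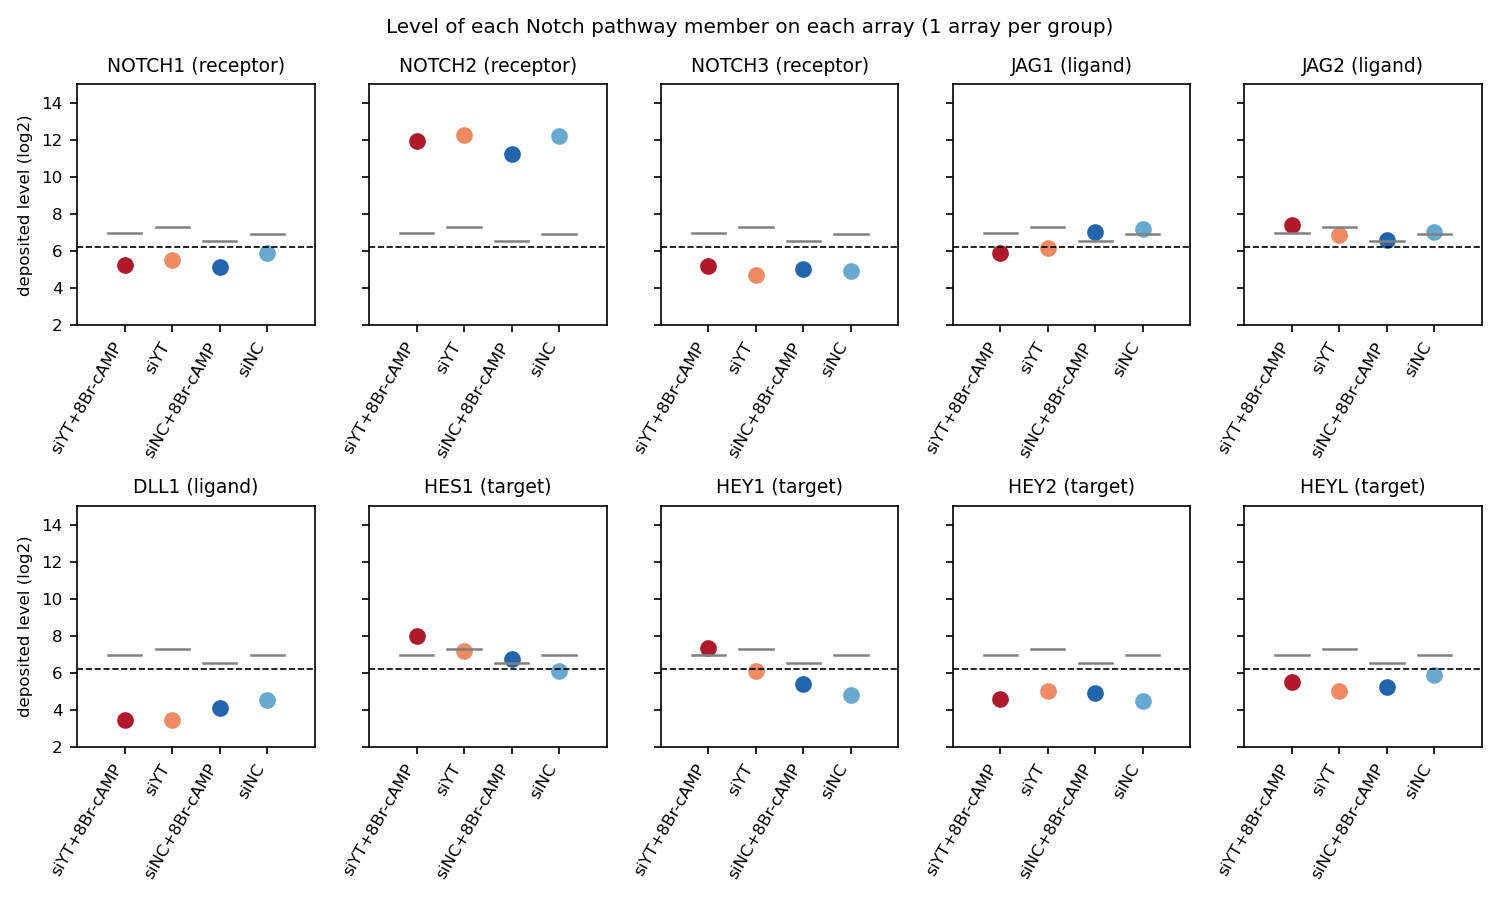
Level of each of the 10 members (vertical axis, deposited log2 units) on the 4 arrays (horizontal axis), 1 point per array with no replicate. The dashed line is the level filter of 6.22 and each grey bar is the 95th percentile of the negative controls on that array. NOTCH2 lies far above both, HES1 and HEY1 are highest in siYT+8Br-cAMP and lowest in siNC, and JAG1 is lower on both siYT arrays.

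Both siRNA targets were lower on the siYT arrays. YAP1, which encodes YAP, was at 6.29 in siYT+8Br-cAMP and 6.80 in siYT, against 9.46 in siNC+8Br-cAMP and 9.48 in siNC. WWTR1, which encodes TAZ, was at 5.35 and 5.45 on the siYT arrays with and without 8Br-cAMP, against 9.13 and 7.58 on the siNC arrays with and without it. CCN2, a matrix protein and YAP/TAZ target, differed by -5.58 with and -5.25 without 8Br-cAMP. Array pairs correlated across probe sets, which are not independent replicates, with r from 0.954 to 0.980. Of 13 granulosa markers, 12 were measured and 9 reached the level filter on at least 1 array, while FOXL2, AMHR2 and INHA did not. The 95th percentile of the negative controls was exceeded by 7 of them on at least 1 array. In each medium 3 granulosa markers were called higher and 2 lower after YAP/TAZ siRNA. Among the higher were CYP19A1 (3.29 with and 9.23 without 8Br-cAMP) and FSHR, the receptor of follicle-stimulating hormone (2.41 and 2.49). No FSHR value exceeded the 95th percentile of the negative controls on its array. The keratin KRT18 was among the lower (-4.71 and -4.02). Of 6 endothelial markers, 5 stayed under the filter on all arrays and none exceeded the 95th percentile of the negative controls, with levels of 3.18 to 5.51 in siYT+8Br-cAMP and 3.60 to 6.09 in siYT, against 3.50 to 5.70 in siNC+8Br-cAMP and 3.83 to 6.31 in siNC. Of 4 leukocyte markers, only CD68, a lysosomal protein, exceeded that percentile, and it was called higher after YAP/TAZ siRNA in both media (2.82 with and 1.92 without 8Br-cAMP). In each medium all 5 markers of dividing cells were called lower, with median levels of 6.30 in siYT+8Br-cAMP and 7.85 in siYT, against 10.95 in siNC+8Br-cAMP and 11.12 in siNC. Of 6 theca and stromal fibroblast markers, 2 were called higher with and 3 without 8Br-cAMP, among them the proteoglycans LUM and DCN in both media. COL1A1 (-0.99 with and 0.11 without 8Br-cAMP) and ACTA2 (-0.36 and -0.05) passed the filter on all 4 arrays and were not called. CYP17A1, which defines theca cells, stayed under the filter on all arrays.

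Among the receptors, NOTCH2 had the only signal well above the controls. It was at 11.95 in siYT+8Br-cAMP and 12.26 in siYT, against 11.27 in siNC+8Br-cAMP and 12.20 in siNC. The value in siNC+8Br-cAMP was the lowest and the other 3 lay close together. YAP/TAZ siRNA went with a difference of 0.68 with 8Br-cAMP and 0.05 without it, and 8Br-cAMP with -0.31 after siYT and -0.93 after siNC. None of these 4 differences reached the size of a call. The NOTCH2 locus has near-identical partial copies, the NOTCH2NL genes, so its probe set could also take up RNA from these.

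NOTCH1, the receptor with the broadest known role, was at 5.25 in siYT+8Br-cAMP and 5.51 in siYT, against 5.14 in siNC+8Br-cAMP and 5.92 in siNC. NOTCH3, known from vascular smooth muscle, was at 5.20, 4.74, 5.05 and 4.93 on the same arrays. Between 74.7% and 89.5% of the negative controls lay under these 8 values, so no receptor other than NOTCH2 could be told from background here. No receptor was called in any of the 4 comparisons.

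JAG1 was the ligand that differed. It was at 5.90 in siYT+8Br-cAMP and 6.15 in siYT, against 7.04 in siNC+8Br-cAMP and 7.19 in siNC. Both siYT values lay under the level filter, and both siNC values exceeded the 95th percentile of the negative controls on the same array. The siRNA difference was -1.14 with 8Br-cAMP, 2.21-fold lower, and -1.04 without it, 2.06-fold lower. Since the siYT values lie near the background, these folds depend on it. As in any RNA from whole cultures, fewer cells that make a transcript and less of it per cell cannot be told apart. JAG1 was called lower in both media, and 8.79% of the genes past the filter with 8Br-cAMP, and 13.0% without it, were at least as much lower. With 32 added to the linear values, which damps low levels, the differences were -0.84 and -0.79 and JAG1 was called in neither medium. The 8Br-cAMP difference of JAG1 was -0.25 after siYT and -0.15 after siNC, which was not called.

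JAG2, the second Jagged ligand, was at 7.40 in siYT+8Br-cAMP and 6.88 in siYT, against 6.60 in siNC+8Br-cAMP and 7.02 in siNC. All 4 values passed the level filter and none of the differences was called. The siRNA difference was 0.80 with 8Br-cAMP and -0.14 without it. DLL1, a Delta-like ligand, was at 3.46 in siYT+8Br-cAMP and 3.42 in siYT, against 4.07 in siNC+8Br-cAMP and 4.52 in siNC. Its siRNA differences of -0.61 and -1.10, with and without 8Br-cAMP, had the sign of those of JAG1, but between 43.1% and 72.9% of the negative controls lay under its values and DLL1 was not called.

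HES1 and HEY1 were the targets that were higher after YAP/TAZ siRNA. HES1 was at 8.00 in siYT+8Br-cAMP and 7.16 in siYT, against 6.76 in siNC+8Br-cAMP and 6.09 in siNC. Both siYT values exceeded both siNC values, and only the siNC value lay under the level filter. Both values with 8Br-cAMP exceeded the 95th percentile of the negative controls on the same array. Neither value without it did, with 7.16 against 7.29 in siYT and 6.09 against 6.94 in siNC. The siRNA difference of HES1 was 1.23 with 8Br-cAMP, 2.35-fold, and 1.06 without it, 2.09-fold, and it was called in both media. With 32 added to the linear values the difference without 8Br-cAMP was 0.80 and no longer called. Of the genes past the filter, 6.66% with and 13.0% without 8Br-cAMP were at least as much higher.

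HEY1 had the largest range of the 10 members over the arrays, 2.49. It was at 7.31 in siYT+8Br-cAMP and 6.08 in siYT, against 5.41 in siNC+8Br-cAMP and 4.82 in siNC. Only the first of these values passed the level filter. The siRNA difference of HEY1 was 1.90 with 8Br-cAMP, 3.74-fold, which was called, and 1.26 without it, 2.40-fold, which was not called because both values lay under the filter. Of the genes past the filter with 8Br-cAMP, 1.90% were at least as much higher. The siNC values of HEY1 and HES1 lie near the background, so these folds depend on it.

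HEY2 and HEYL, the other HEY repressors, stayed near the background. HEY2 was at 4.59 in siYT+8Br-cAMP and 5.00 in siYT, against 4.89 in siNC+8Br-cAMP and 4.46 in siNC. HEYL was at 5.48, 5.00, 5.20 and 5.86 on the same arrays. Their siRNA differences changed sign between the media, with -0.30 and 0.53 for HEY2 and 0.28 and -0.86 for HEYL, with and without 8Br-cAMP. HEY2 and HEYL lay under the level filter on all arrays, so neither could be called in any comparison. Their RBPJ letters printed above therefore cannot be set against a call.

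Counted together, 3 of the 10 members were called for the siRNA with 8Br-cAMP (HES1 and HEY1 higher, JAG1 lower), beside 11.5% of all genes. Without 8Br-cAMP 2 were called (HES1 higher, JAG1 lower), beside 14.9% of all genes. JAG1 and HES1 were called in the same direction in both media, as were 6.88% of all genes. The shares of the 10 members rest on so few genes that they are given as a description. The median difference of the members was 0.21 with and -0.17 without 8Br-cAMP, against 0.06 and 0.02 over all genes. The median absolute difference was 0.65 and 0.70, against 0.42 and 0.43 over all genes. The 5 markers of dividing cells had median differences of -4.04 and -3.34 in the same comparisons, and the 2197 positive control probe sets of -0.35 and -0.36. Their part, and that of the granulosa, stromal and CD68 changes given above, in the differences of JAG1, HES1 and HEY1 was not tested.

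**Figure D2:**
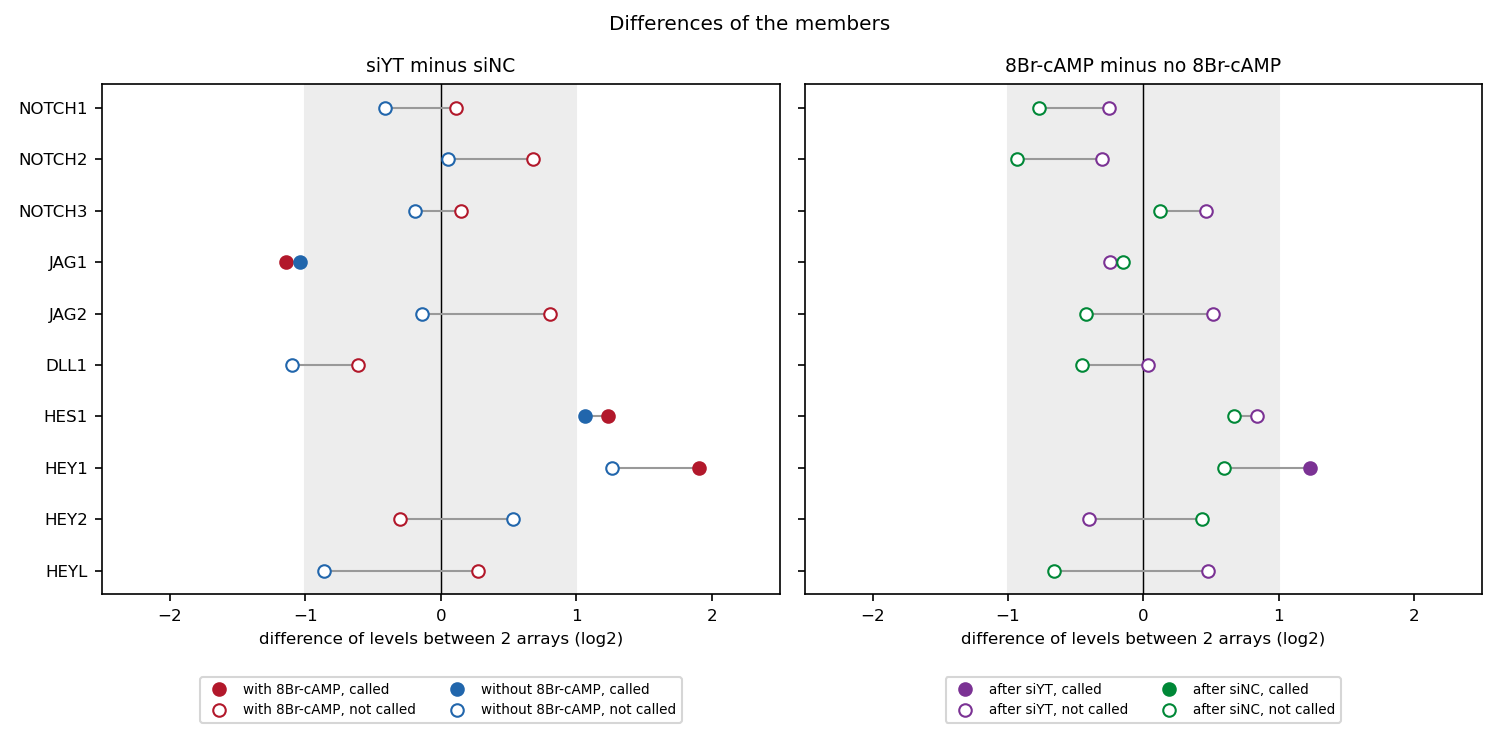
Differences of the 10 members between pairs of arrays (horizontal axis, log2), for siYT minus siNC on the left and 8Br-cAMP minus no 8Br-cAMP on the right. Filled points were called by size and level, open points were not, and the grey band spans differences under 2-fold. For the siRNA, the 2 points of JAG1 lie close together on the low side and those of HES1 and HEY1 on the high side.

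8Br-cAMP was followed after each siRNA. HEY1 was 1.23 higher with 8Br-cAMP after siYT, 2.34-fold, and this was the only call, 1 of 10 members beside 8.21% of all genes. With 32 added to the linear values it was 0.94 and no longer called. After siNC, HEY1 differed by 0.59 and no member was called, beside 8.06% of all genes. HES1 differed by 0.84 after siYT and by 0.67 after siNC, both under the size of a call. Of the genes past the filter, 4.80% were at least as much higher as HEY1 after siYT. The siRNA and 8Br-cAMP differences of a gene share arrays, so they are not separate measurements. The levels of HES1 and HEY1 had the same order, siYT+8Br-cAMP over siYT over siNC+8Br-cAMP over siNC, and with 1 array each it cannot be said which neighbours in that order differ beyond their spread.

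The difference of differences, in which the effect of 8Br-cAMP after siNC is subtracted from its effect after siYT, was called for 0 of the 10 members, beside 8.39% of all genes. No p-value goes with this count, since no replicate exists. It was 0.64 for HEY1, 0.17 for HES1 and -0.10 for JAG1. JAG2 came closest among the members past the filter, at 0.94. HEYL had 1.14, but all its values lay under the filter.

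**Figure D3:**
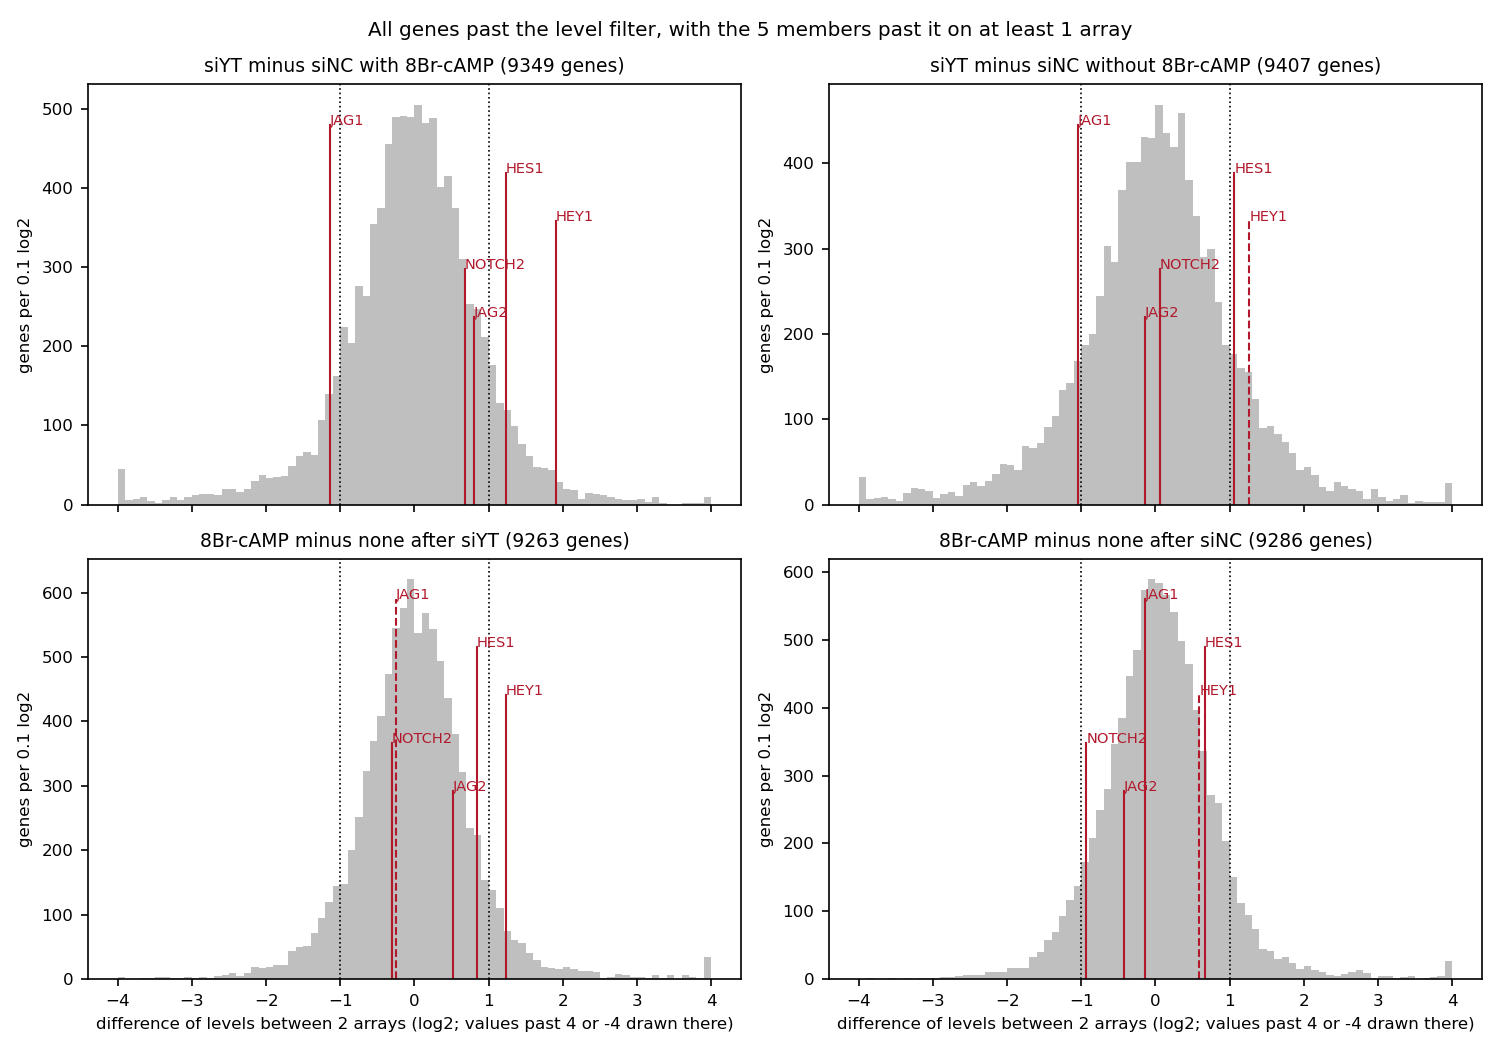
Number of genes per 0.1 log2 (vertical axis) by their difference between 2 arrays (horizontal axis, log2) in the 4 comparisons, for genes whose higher value passed the level filter. Red lines mark the 5 members that passed the filter on at least 1 array, dashed where neither value of that pair passed, and dotted lines mark 2-fold. JAG1, HES1 and HEY1 lie past 2-fold for the siRNA, within the range of many other genes.

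As a second reading, limma was fitted to all genes with a term for the siRNA, a term for 8Br-cAMP and none for their interaction. It leaves 1 residual degree of freedom, and its error holds the difference of differences as well as noise, and its p-values thus say nothing on how cultures vary. For the siRNA, HES1 rose by 1.15 on average with an SE of 0.307 (limma, adjusted p = 0.0443), and HEY1 by 1.58 with an SE of 0.322 (limma, adjusted p = 0.0129). JAG1 had -1.09 with an SE of 0.307 and just missed the threshold of 0.05 (limma, adjusted p = 0.0533). Thus 2 of 10 members rose and 0 fell, beside 8.97% of all genes that passed, 4.3% that rose and 4.67% that fell. DLL1 had an unadjusted p of 0.0216 in limma and did not pass after adjustment (adjusted p = 0.135). An unadjusted p under 0.05 for the siRNA was reached by 3923 of all 17687 genes. For 8Br-cAMP 0 members passed in limma, beside 1.81% of all genes. An unadjusted p under 0.05 was reached by 2 members, HES1 and HEY1, and by 2607 of all 17687 genes. HEY1 had 0.91 (limma, adjusted p = 0.209) and HES1 0.75 (limma, adjusted p = 0.286). With 32 added to the linear values, neither HES1 nor HEY1 passed for the siRNA (limma, adjusted p = 0.0867 and 0.122). In that setting limma passed 0 of all genes for the siRNA, so these misses are not particular to HES1 and HEY1. Over the alternatives the adjusted p of HES1 ran from 0.0261 to 0.0867 and that of HEY1 from 0.00335 to 0.122. For JAG1 it ran from 0.0269 to 0.0864, and JAG1 passed after cyclic loess and after the array medians were aligned.

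The rest of the pathway was taken from a list of 52 genes, of which 48 were measured and 29 reached the level filter on at least 1 array. The remaining 4 were not analysed here. For the siRNA with 8Br-cAMP, 3 of the 48 were called higher (POGLUT1, MAML3 and DTX3) and 3 lower (RBPJ, KAT2B and DTX3L). Without it 6 were called higher (NCSTN, FURIN, TLE4, NUMB, FBXW7 and DTX3) and 0 lower. The shares over all genes were 5.52% higher and 5.94% lower with 8Br-cAMP, and 7.6% higher and 7.32% lower without it. Across the list the median siRNA difference was 0.07 with and 0.26 without 8Br-cAMP, against 0.06 and 0.02 over all genes. For 8Br-cAMP, 2 were called higher (POGLUT1 and MAML3) and 5 lower after siYT (APH1A, KAT2B, TLE1, TLE4 and DTX3L), and FURIN alone was called higher, with 0 lower, after siNC. Over all genes these shares were 4.06% and 4.15% after siYT, and 4.32% and 3.74% after siNC. The difference of differences was called for 1 gene of the list in the positive direction (MAML3) and for 6 in the negative one (FURIN, KAT2B, TLE4, NUMB, FBXW7 and DTX3L), beside 3.57% and 4.82% of all genes. Over all genes these calls were 631 in the positive and 853 in the negative direction, and 801 and 686 with array medians aligned.

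NOTCH4, the remaining receptor, and all 4 further ligands and ligand-like genes (DLL3, DLL4, DLK1 and DLK2) stayed under the filter on all arrays. In the group that cleaves receptors, all 8 measured genes passed the filter. NCSTN, the nicastrin subunit of gamma-secretase, was at 11.42 in siYT+8Br-cAMP and 11.45 in siYT, against 10.43 in siNC+8Br-cAMP and 9.74 in siNC. FURIN, the protease that matures the receptor, was at 10.70 and 10.50 on the siYT arrays with and without 8Br-cAMP, against 9.76 and 8.49 on the siNC arrays. Both were higher on both siYT arrays, and both were called without 8Br-cAMP (1.70 for NCSTN and 2.01 for FURIN) but not with it (0.99 and 0.95). Both rose for the siRNA in limma (adjusted p = 0.0291 for NCSTN and 0.0255 for FURIN). ADAM10 and ADAM17, the membrane proteases that make the first cut after ligand binding, were not called in any comparison.

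In the nuclear group, RBPJ, the DNA-binding partner of all Notch receptors, was at 8.58 in siYT+8Br-cAMP and 9.14 in siYT, against 9.87 in siNC+8Br-cAMP and 10.08 in siNC. RBPJ is named here after its values were seen. All 4 of its values passed the 95th percentile of the negative controls, and both siYT values were the lower ones. The siRNA difference was -1.29 with 8Br-cAMP, which was called, and -0.94 without it, which was not. In limma RBPJ did not pass for the siRNA (adjusted p = 0.0521), and over the alternatives its adjusted p ran from 0.0264 to 0.0821.

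MAML3, a Mastermind coactivator, was at 9.28 in siYT+8Br-cAMP and 6.96 in siYT, against 6.83 in siNC+8Br-cAMP and 6.18 in siNC. Its highest value was that of the combined treatment, with a siRNA difference of 2.45 with and 0.78 without 8Br-cAMP and a difference of differences of 1.67. MAML3 rose for the siRNA in limma (adjusted p = 0.0327). KAT2B, an acetyltransferase recruited by the Notch complex, was at 6.04 in siYT+8Br-cAMP and 8.54 in siYT, against 7.52 in siNC+8Br-cAMP and 7.82 in siNC. The corepressor TLE4 was at 8.71 and 9.76 on the siYT arrays with and without 8Br-cAMP, against 8.35 and 7.98 on the siNC arrays. TLE1, its relative, was at 7.89 in siYT+8Br-cAMP and 9.54 in siYT, against 8.03 in siNC+8Br-cAMP and 8.77 in siNC. With 8Br-cAMP after siYT, KAT2B, TLE1 and TLE4 were called lower, by -2.49, -1.64 and -1.04. The KAT2B value in siYT+8Br-cAMP lay under the level filter.

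Among 13 genes of ligand and receptor turnover, DTX3, a Deltex family ubiquitin ligase, was the only gene of the list called in the same direction in both media. That is 1 of the 48 measured, beside 6.88% of all genes, so such a call is no rarer outside the list. DTX3 is named because the naming rule picked it. DTX3 was at 8.83 in siYT+8Br-cAMP and 8.34 in siYT, against 7.53 in siNC+8Br-cAMP and 7.22 in siNC. Its siRNA differences were 1.30 with and 1.12 without 8Br-cAMP, and it rose in limma (adjusted p = 0.0361). NUMB, an inhibitor of Notch, and FBXW7, which marks the Notch intracellular part for breakdown, were called higher by size without 8Br-cAMP (1.53 and 1.47) and not called with it (0.47 and 0.11), and neither passed in limma. Of the 8 other HES family members and targets, HES4 alone passed the filter, and it was not called in any comparison. Over the whole list limma called 4 genes higher and 0 lower for the siRNA (NCSTN, FURIN, MAML3 and DTX3), beside 4.3% and 4.67% of all genes. For 8Br-cAMP limma called 0 genes of the list, beside 1.81% of all genes. For that term 6 of the 48 had an unadjusted p under 0.05 in limma, as had 2607 of all 17687 genes. With 32 added to the linear values, limma passed none of NCSTN, FURIN, MAML3 and DTX3, with adjusted p-values of 0.0981, 0.127, 0.234 and 0.0754 in that order. In that setting limma passed 0 of all genes for the siRNA, so these misses are not particular to the 4 genes.

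**Figure D4:**
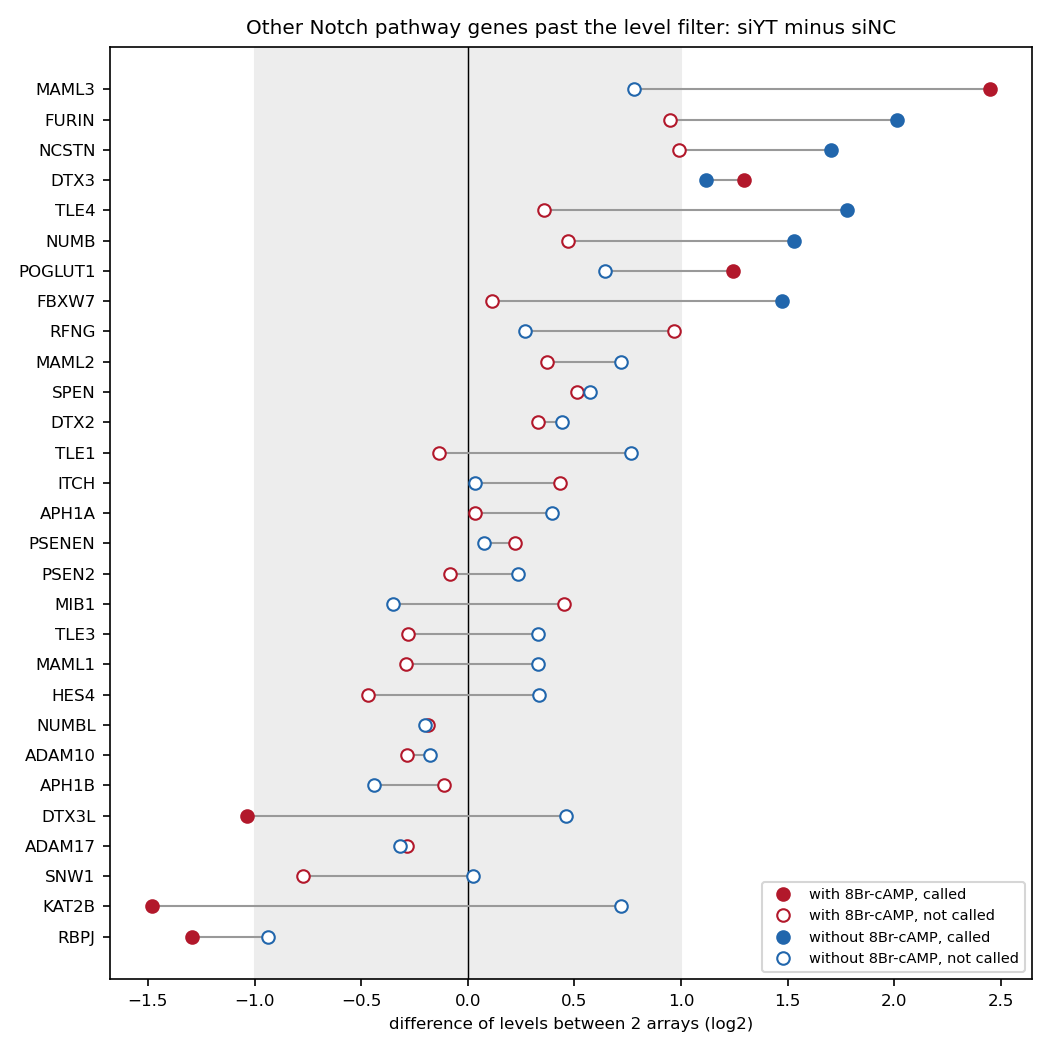
siYT minus siNC differences (horizontal axis, log2) of the 29 other pathway genes that passed the level filter on at least 1 array, ordered by their mean over both media. Filled points were called, open points were not, and the grey band spans differences under 2-fold. DTX3 has both points past 2-fold. On the high side MAML3, FURIN, NCSTN, TLE4, POGLUT1, NUMB and FBXW7 have 1. On the low side RBPJ, KAT2B and DTX3L have 1, and RBPJ lies lowest on average.

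Genes with the pattern most like HEY1 and HES1 were sought by the root mean square distance between levels centred on each gene's mean over the 4 arrays. The search covered 5161 genes past the filter with a range of at least 1. Nearest to HEY1 were SFXN1, a mitochondrial serine transporter, at a distance of 0.00632, the adaptor protein gene GAB2 at 0.0375 and the glycerophosphocholine phosphodiesterase gene GPCPD1 at 0.0622. Nearest to HES1 were FTO, an RNA demethylase, at 0.0450, the ubiquitin ligase gene RNF103 at 0.0452 and IFT27, a component of intraflagellar transport, at 0.0475. Within a distance of 0.25 lay 73 genes for HEY1 and 286 for HES1, so with 4 points per gene many profiles are alike.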

How the data were processed

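The authors' deposited values are log2 signals of 4 arrays, computed by RMA in Affymetrix Expression Console per the labels and the submitters' processing notes. Software versions and the annotation build are not given in the sources used here. Values run from 1.39 to 19.36, higher than a 16-bit scan can give (16 in log2), so an unstated rescaling is possible. Levels and folds are therefore on the deposited log2 scale. Of 24351 probe sets, 17709 named exactly 1 gene and gave 17687 genes, averaged for the 20 genes with several. Array medians lay between 6.20 and 6.27, and the number of arrays limits the precision.

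Differences between 2 arrays were called by size and level alone. The additive fit used limma 3.58.1 in R 4.3.3 with Benjamini-Hochberg adjustment over all genes at 0.05. Named genes were all members, YAP1, WWTR1, CCN2, list genes called in both comparisons of a treatment, up to 6 further list genes with the largest difference, and the 3 nearest profiles of 2 members. Other list genes and the markers named in the text, RBPJ, NUMB and FBXW7 among them, lie outside this rule and were named after their values were seen. The members and lists were chosen with earlier results of these data known. Alternatives were cyclic loess, aligned array medians, 32 added to the linear values, other level filters, a 1.5-fold threshold and the highest probe set. Promoter sequences are from RefSeq on GRCh38.p14. No protein comparison was made.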

Additional observations from a re-analysis of the deposited data

Results flagged for a closer look

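Of the members and list genes, 5 list genes were flagged by a rule. Their siRNA or 8Br-cAMP differences had opposite signs in the 2 settings, and their difference of differences was called. How many of all genes meet this rule was not counted. The difference of differences alone was called for 8.39% of all genes. Its value was -2.20 for KAT2B, -1.50 for DTX3L, -1.42 for TLE4, -1.36 for FBXW7 and -1.06 for NUMB. For KAT2B the siRNA difference was -1.48 with and 0.72 without 8Br-cAMP, and for DTX3L it was -1.03 and 0.46. The 8Br-cAMP difference was -1.04 after siYT and 0.38 after siNC for TLE4, -0.92 and 0.45 for FBXW7, and -0.84 and 0.22 for NUMB. KAT2B in siYT+8Br-cAMP (6.04) and FBXW7 in siNC (6.10) lay under the level filter, so the sizes for these genes depend on the background. With 1 array per group, the difference of differences of the 5 genes was not tested. None of the 5 passed in limma for the siRNA or for 8Br-cAMP.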

How the results depend on the processing

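Each of the 10 members has 4 arrays and no replicate, so the sizes have no error. Low levels limit the 5 members under the filter on all arrays and the folds of JAG1, HES1 and HEY1. No analysis paired by replicate was possible because each group had 1 array, and the limma fit already compares the siRNAs within each medium. Of 150 member differences recomputed under the other scalings and with 32 added, 144 kept their call or lack of one and 0 called differences changed sign. The 5 members under the filter on all arrays had no call to lose, so their part of the 144 says nothing on robustness. Of the rest, 4 calls were lost and 2 gained. All 4 losses came with 32 added. The highest probe set changes nothing for the members, which have 1 each. With 32 added to the linear values, 0 members were called for the siRNA without 8Br-cAMP, 0 for 8Br-cAMP after siYT, and 0 passed limma for the siRNA term. There JAG1 had -0.84 with and -0.79 without 8Br-cAMP, HES1 0.80 without it, and HEY1 0.94 for 8Br-cAMP after siYT. In that setting 0 list genes were called in both media, and limma called 0 of all genes for the siRNA, with 3964 at an unadjusted p under 0.05. After cyclic loess 1 member (NOTCH2, -1.03) was called for 8Br-cAMP after siNC. With array medians aligned, 1 member (JAG2, 1.04) was called for the difference of differences and 3 list genes in both media (NCSTN, FURIN and DTX3). Without a level filter 4 members were called for the siRNA without 8Br-cAMP (DLL1 and HEY1 added) and 1 for the difference of differences (HEYL). Over all 17687 genes, 1642 were then higher and 1561 lower for that siRNA comparison. For the difference of differences 1409 were higher and 1347 lower. At 1.5-fold the counts were 5 members for the siRNA with 8Br-cAMP, 2 for 8Br-cAMP after each siRNA and 3 for the difference of differences. At that threshold 2047 of all genes were called higher and 2077 lower for the siRNA with 8Br-cAMP. For 8Br-cAMP 1706 were higher and 1712 lower after siYT, and 1888 and 1629 after siNC. For the difference of differences 1676 were higher and 2050 lower. In the list 6 genes were called in both media and 5 after both siRNAs, with no count made over all genes. Aligning the medians moved the median siRNA difference of all genes with 8Br-cAMP to 0.11, against 0.06. It also moved the calls of the difference of differences over all genes to 801 higher and 686 lower, against 631 higher and 853 lower.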
